A study of Mus musculus with 100 samples.

Results

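The uninjured left knee of C57BL/6 mice was profiled by RNA-seq 1 week after the right knee had been injured, and was set against knees of C57BL/6 mice that had received no injury. The comparison held 5 libraries of the 1-week contralateral joint and 4 libraries of the 0-day joint, 9 of the 100 libraries in the series, and it covered all 17310 genes in the table. C57BL/6 is the inbred strain that served as the intermediate between STR/ort, which is prone to osteoarthritis, and MRL/MpJ, which heals well. Mice were 10 weeks old at injury according to the labels, which give that same age for the 0-day libraries and do not give the sex. Injury was a single compressive load on the right tibia under isoflurane anesthesia, which ruptures the anterior cruciate ligament, and injured mice also received buprenorphine. The 0-day mice were not loaded and there was no sham group, so the passage of a week, any anesthesia and analgesia that the 0-day mice did not receive, any change of gait, which was not measured, and the injury on the other side cannot be told apart. Each library came from poly(A) RNA of a whole knee joint with traces of soft tissue, and all libraries compared here carry the label of experimental batch 1.

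The knee joint is a mixture of tissues. Articular cartilage is built from type II collagen and aggrecan, bone and ligament from type I collagen, and the synovial lining makes lubricin, while the muscle left at the joint edges is made of fast, glycolytic fibers and slow, oxidative fibers that carry different forms of the same contractile proteins. The contralateral joint is the usual reference for an injured joint, and it bears more of the body weight when the injured leg is spared. In these bulk samples, fewer cells of a type and less RNA per cell cannot be told apart.

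One week after injury the contralateral C57BL/6 joint held more mRNA of slow muscle fibers and of fatty acid oxidation, and less mRNA of cartilage, bone, tendon, synovium and collagens, than the 0-day joint. Calls required a fold change above 1.5 and an adjusted p below 0.05 in edgeR's quasi-likelihood test. By this rule 150 genes (0.867% of those tested) rose and 759 genes (4.38%) fell, in all 909 genes (5.25%). The median log2 fold change over all genes was 0.01. The number that rose went down to 81 without 0-day replicate 4 and to 99 without contralateral replicate 2, and up to 223 without contralateral replicate 5. Called genes changed moderately, with a median of 1.79-fold among those that rose and 1.80-fold among those that fell. All 5 contralateral libraries lay above all 4 0-day libraries for 105 of the 150 genes that rose, and below them for 619 of the 759 that fell. Over all genes tested, 6.57% had every contralateral library above every 0-day library and 7.59% had the opposite order.

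**Figure D1:**
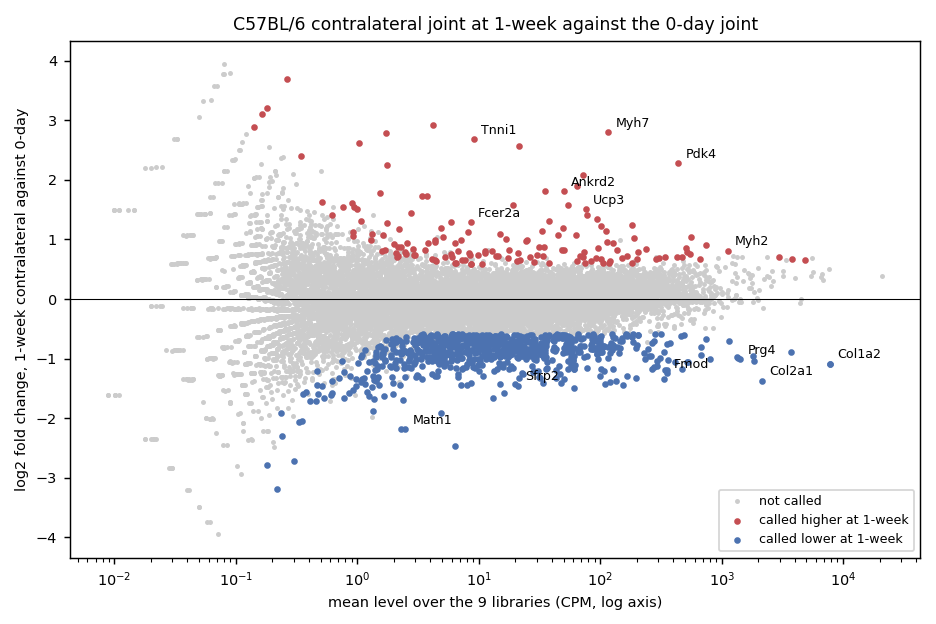
Each point is 1 of the 17310 genes, with its mean level over the 9 libraries in CPM (log axis) on the horizontal axis and its log2 fold change between the 1-week contralateral and the 0-day joint on the vertical axis. The 759 called lower genes (blue) outnumber the 150 called higher genes (red) and include highly expressed matrix genes such as Col1a2 and Col2a1, while Myh7 and Pdk4 stand out above.

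Total counts were 9596850 to 11946239 in the 0-day libraries and 8074119 to 12311812 in the 1-week contralateral libraries, so depth overlapped between the groups. A further 5 contralateral libraries, from 1 day after injury, had 9374169 to 20986027 counts. On the first principal component of these 14 uninjured C57BL/6 libraries, which held 24.4% of the variance, the 1-week libraries ranged from 11.2 to 42.2, the 1-day libraries from -19.7 to -7.59 and the 0-day libraries from -28.8 to -10.1. The labels do not say that libraries of a group came from separate animals, so p-values measure the spread between these samples. Of the 25 housekeeping genes that the study used as references 0 were called, and their median log2 fold change was -0.02.

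Slow muscle fiber genes rose most. Of 14 genes measured on this list, 11 rose and none fell, with a median log2 fold change of 1.69 against 0.01 over all genes. Levels are given as CPM, counts scaled to the size of each library. Myh7, the slow myosin heavy chain, was at 23.9, 20.3, 40.4 and 22 CPM in the 0-day libraries and at 269, 306, 103, 137 and 125 CPM in the contralateral libraries. The groups were far apart, and contralateral replicates 1 and 2 were higher than the other 3. Its level was 6.96-fold higher (log2 2.80 ± 0.45 SE, adjusted p = 0.000495). Tnni1, the slow form of the inhibitory troponin subunit, was at 1.99, 1.85, 2.83 and 2.16 CPM before and at 23, 22.2, 5.64, 12.5 and 9.73 CPM after (log2 2.68 ± 0.46, adjusted p = 0.000765), again with no overlap and with the same pair of libraries on top. Other slow contractile genes of the list were chosen for mention after their values were seen. These were Tnnc1, the slow and cardiac calcium-binding troponin (log2 2.57 ± 0.45), Tnnt1, the slow tropomyosin-binding troponin (2.08 ± 0.37), and the slow myosin light chains Myl2 (1.89 ± 0.38) and Myl3 (1.82 ± 0.36), and each of them was called.

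Further muscle genes rose, of which Ankrd2 and Csrp3 are on the slow fiber list and the others are not. Ankrd2, an ankyrin-repeat protein of the sarcomere that responds to stretch, was at 23.3, 18.4, 26.4 and 15.2 CPM in the 0-day libraries and at 71.8, 124, 63, 55 and 56.1 CPM in the contralateral libraries, a 3.49-fold increase (log2 1.80 ± 0.24, adjusted p = 0.000102). Csrp3, the muscle LIM protein of the Z-disc, went from 20.6 to 30.1 CPM at 0-day to 55.3 to 142 CPM at 1-week (log2 1.58 ± 0.25, adjusted p = 0.000371). In both genes the groups did not overlap and contralateral replicate 2 was the highest. Xirp1, an actin-binding protein of the muscle-tendon junction and intercalated disc, was at 50.7, 33.8, 41.7 and 35.9 CPM at 0-day and at 92, 165, 113, 75.1 and 98 CPM at 1-week (log2 1.40 ± 0.19, adjusted p = 0.000129). Lmcd1, a LIM-domain regulator of muscle growth, rose 2.28-fold (log2 1.19 ± 0.17), and Sln, the sarcolipin that inhibits the calcium pump of the sarcoplasmic reticulum, rose 4.78-fold from a low level of 0.402 to 0.634 CPM to 1.67 to 4.5 CPM. Lrrc52, a potassium channel subunit, rose 6.16-fold from 0.0804 to 0.393 CPM to 0.688 to 3.02 CPM, which is few reads per library.

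Fast muscle genes, by contrast, mostly missed the call. Only Myh2, the myosin of the fast oxidative fiber, was called among 16 (log2 0.81 ± 0.24, adjusted p = 0.0324), at 795, 709, 1194 and 444 CPM at 0-day and 1467, 1907, 1438, 1164 and 983 CPM at 1-week, where the 2 lowest contralateral libraries lay below the highest 0-day library. Its call was lost when any 1 library other than 0-day replicate 3 and contralateral replicates 4 and 5 was left out (adjusted p between 0.0532 and 0.112). All 16 fold changes were positive, from 0.29 to 0.81 on the log2 scale with a median of 0.41, and in none did the groups separate. Myh4, the myosin of the fast glycolytic fiber (named after its values were seen), was at 13716 to 21659 CPM and 16862 to 29277 CPM (log2 0.39 ± 0.25, adjusted p = 0.355). Fast and slow muscle genes together took 5.31% to 8.09% of the counts of the 0-day libraries and 6.55% to 10.5% of those of the contralateral libraries. The amount of muscle RNA therefore overlapped between the groups, and its part in the rise of the slow fiber genes was not tested. Relative to fast muscle genes, the summed slow fiber list was 3.16% to 4.01% at 0-day and 3.89% to 5.28% in the contralateral joint. Only the lowest contralateral library lay within the 0-day range. Most of this sum came from list members not named here. Its 0-day mean was 2328.5 CPM, against 26.6 CPM for Myh7, the highest of the named members at 0-day. The ratio therefore does not describe the change of the named slow fiber genes.

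The 250 bases before the start site are shown for the 3 slow fiber genes whose window held the MCAT element, a motif bound by TEAD factors in muscle genes, in order to let the sequence be read beside the change of each gene. A promoter window, 250 bases before to 50 bases after the start, was found in RefSeq for 12794 of the 17310 genes tested (assembly GRCm38.p6), including 13 of the 14 slow fiber genes. The letters CATTCC were searched on both strands and lie in 12.6% of all windows and in 3 of the 13 slow fiber windows (23.1%). Other motifs were searched too, and MCAT was not the most frequent. The E-box CAGCTG lies in 5 of the 13 slow fiber windows (38.5%) against 16.1% of all windows. The TATA box TATAAA lies in 3 of the 13 (23.1%) against 8.39%. Capitals mark the match, written GGAATG where it lies on the opposite strand. Each sequence runs 5′ to 3′ on the strand of the gene, from chr14:54994627-54994876 (minus strand) for Myh7, chr14:31208062-31208311 (plus strand) for Tnnc1 and chr9:110763428-110763677 (plus strand) for Myl3.
Myh7: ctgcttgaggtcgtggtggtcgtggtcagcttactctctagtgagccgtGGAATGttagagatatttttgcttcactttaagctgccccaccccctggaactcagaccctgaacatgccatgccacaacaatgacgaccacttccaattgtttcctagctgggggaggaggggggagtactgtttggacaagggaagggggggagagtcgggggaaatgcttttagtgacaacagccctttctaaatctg
Tnnc1: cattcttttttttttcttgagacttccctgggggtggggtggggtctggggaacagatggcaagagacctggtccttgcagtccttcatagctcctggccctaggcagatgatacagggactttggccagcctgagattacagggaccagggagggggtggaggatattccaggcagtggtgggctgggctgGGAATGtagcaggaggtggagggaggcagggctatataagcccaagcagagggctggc
Myl3: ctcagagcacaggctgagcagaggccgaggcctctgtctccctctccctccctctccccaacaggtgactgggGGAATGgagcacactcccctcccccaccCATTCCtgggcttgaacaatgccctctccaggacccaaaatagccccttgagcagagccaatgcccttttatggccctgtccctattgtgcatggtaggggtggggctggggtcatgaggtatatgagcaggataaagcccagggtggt
The match lies 201 to 196 bases before the start in Myh7 and 58 to 53 bases before it in Tnnc1, both on the opposite strand. Myl3 holds a pair of matches, at 177 to 172 bases on the opposite strand and at 149 to 144 bases on the coding strand. None of the matches overlapped a match to the TATA box TATAAA, the MEF2 motif (CTA and TAG with 4 free bases between them) or the E-box CAGCTG, because the 3 printed stretches hold none of them. A match describes the sequence and is not a measured binding site. The GC-rich SP1 motif GGGCGG lies in 58.3% of all windows, in 2 of the 13 slow fiber windows (15.4%), in 39.1% of those of genes that rose and in 57.7% of those of genes that fell.

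Genes of fatty acid use rose alongside. On the list for fatty acid oxidation and ketone use 6 of 22 genes rose, none fell, and all 22 fold changes were positive with a median log2 of 0.46. Pdk4, the kinase that turns pyruvate dehydrogenase off and so spares glucose, was at 99.2, 124, 162 and 169.6 CPM in the 0-day libraries and at 827, 982, 687, 571 and 339 CPM in the contralateral libraries. Even the lowest contralateral library lay above every 0-day library, and the increase was 4.85-fold (log2 2.28 ± 0.29, adjusted p = 8.77e-05). Ucp3, the uncoupling protein of muscle mitochondria, was at 37.3, 34.3, 36.9 and 41.6 CPM and at 118, 153, 101, 97.6 and 69.3 CPM, 2.83-fold higher (adjusted p = 0.000231). Ppara, the nuclear receptor that drives genes of fatty acid oxidation, rose 2.44-fold, and Fabp3, the fatty acid carrier of heart and slow muscle, rose 2.21-fold. Esrrg, an orphan receptor of oxidative fibers, rose 2.97-fold from 5.79 to 11.5 CPM to 15.7 to 44.8 CPM. Ppargc1a, the coactivator of mitochondrial biogenesis (log2 0.97 ± 0.22, adjusted p = 0.00698), and Plin5, a lipid droplet coat protein of oxidative tissue (0.80 ± 0.22, adjusted p = 0.0236), were called too. The call of Plin5 was lost without 0-day replicate 2 or 4 or contralateral replicate 1 or 2 (adjusted p between 0.0534 and 0.0901). Genes of the respiratory chain (median log2 0.30) and of glycolysis (0.33) had 0 of 28 and 0 of 20 called, although 27 and 19 fold changes were positive.

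Beyond these, the muscle ubiquitin ligase Fbxo32, a marker of atrophy, rose 2.38-fold (log2 1.25 ± 0.27, adjusted p = 0.00439) and Trim63, its companion, was at 44.4 to 58.7 CPM and 55.4 to 118 CPM (0.70 ± 0.22, adjusted p = 0.0468). The call of Trim63 was lost when any 1 library other than contralateral replicates 4 and 5 was left out (adjusted p between 0.0643 and 0.144), with DESeq2 (adjusted p = 0.067) and with 1 RUVg factor (log2 0.49). They were the 2 called genes of 12 on the atrophy list, and 1 of 14 genes of muscle regeneration and denervation was called. On the heat shock list 3 of 18 genes were called higher, all small heat shock proteins abundant in muscle, namely Hspb7 (log2 1.02 ± 0.20), Cryab (0.67 ± 0.19) and Hspb1 (0.63 ± 0.19). In Hspb7 and Cryab the highest value was that of contralateral replicate 2. Without that library the calls of Cryab (adjusted p = 0.0601) and Hspb1 (adjusted p = 0.105) were lost, as they were without 0-day replicate 2 or 4 (adjusted p between 0.0784 and 0.129), and that of Hspb1 also without 0-day replicate 1 or 3 or contralateral replicate 4. With 1 RUVg factor, estimated from the housekeeping genes, both fell short of the fold required (log2 0.48 and 0.49). Nr4a3, an orphan receptor induced by exercise and by hormones, rose 3.32-fold from 0.913 to 2.26 CPM to 2.89 to 8.14 CPM.

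**Figure D2:**
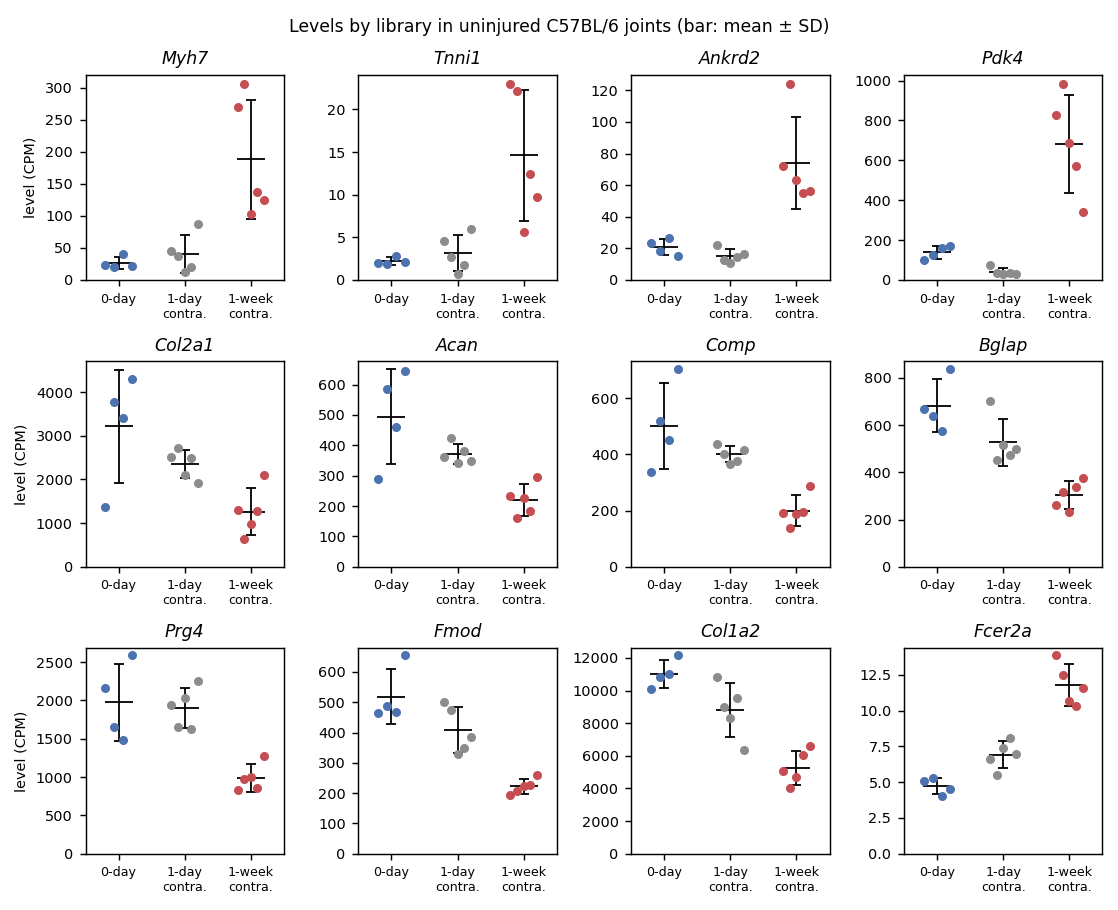
Levels of 12 genes in CPM (vertical axis, from 0) in the 4 0-day, 5 1-day contralateral and 5 1-week contralateral C57BL/6 libraries, 1 point per library with the mean and SD as a bar. Myh7, Tnni1, Ankrd2, Pdk4 and Fcer2a are higher at 1-week than in all 0-day libraries. Acan and Col2a1 each overlap in 1 contralateral library, and Comp, Bglap, Prg4, Fmod and Col1a2 are lower without overlap.

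Cartilage genes fell as a whole. All 18 genes measured on the cartilage list were called lower, with log2 fold changes from -2.18 to -0.91 and a median of -1.31. Comp, a matrix protein that links collagens in cartilage and tendon, was at 336, 519, 451 and 703 CPM in the 0-day libraries and at 193, 139, 188, 193 and 288 CPM in the contralateral libraries, 2.54-fold lower (log2 -1.34 ± 0.18, adjusted p = 0.00012). Sox9, the transcription factor of chondrocytes, was at 19.4, 32.2, 26.8 and 32.6 CPM and at 10.0, 9.59, 13.7, 11.4 and 17.5 CPM (log2 -1.16 ± 0.17, adjusted p = 0.000259). For both genes the groups were separate. Acan, the core protein of aggrecan, was at 288, 585, 461 and 644 CPM and at 232, 161, 227, 184 and 295 CPM (log2 -1.19 ± 0.19, adjusted p = 0.000385), and here the highest contralateral library lay just above the lowest 0-day library. Col2a1, the main collagen of cartilage (named after its values were seen), was at 1359, 3783, 3415 and 4310 CPM and at 1307, 647, 969, 1284 and 2112 CPM (log2 -1.37 ± 0.29, adjusted p = 0.00428). Here too the highest contralateral library lay above the lowest 0-day library. Matn1, a matrix protein of cartilage other than the adult articular surface, had the largest decrease of the list, from 1.81, 6.92, 3.38 and 5.3 CPM to 1.62, 0.788, 0.716, 0.486 and 1.38 CPM (log2 -2.18 ± 0.38, adjusted p = 0.000815).

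In Acan, Comp, Sox9, Col2a1 and Matn1 the lowest 0-day value belonged to replicate 1. That library also had the lowest summed level of the cartilage list, 4728 CPM against 8692 to 11253 CPM in the other 3, while the contralateral libraries held 2491 to 5612 CPM. Every contralateral library lay below every 0-day library for 7 of the 18 genes. When 0-day replicate 1 or any other library was left out, at least 17 of the 18 genes were still called lower. How much cartilage was cut with each joint was not measured, and its part in the result was not tested. As a share of the 2 type I collagen genes, the summed cartilage list was 24.7% to 45.3% in the 0-day joint and 28.0% to 43.3% in the contralateral joint, so the share of cartilage to type I collagen mRNA overlapped between the groups.

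Bone genes fell in the same libraries. Of 17 osteoblast and osteocyte genes 12 fell and none rose, with a median log2 of -0.80, and 11 had separate groups. Bglap, the osteocalcin made by mature osteoblasts, was at 670.4, 639, 577 and 839 CPM in the 0-day libraries and at 259.8, 319, 230.2, 338 and 377 CPM in the contralateral libraries, 2.26-fold lower (log2 -1.18 ± 0.15, adjusted p = 6.95e-05). Phex, an endopeptidase of osteocytes in phosphate handling, was at 88.8 to 125 CPM and at 47.5 to 70.5 CPM (log2 -0.95 ± 0.12, adjusted p = 4.94e-05), and Dkk1, a secreted inhibitor of Wnt signaling, was at 15 to 23.9 CPM and at 7.6 to 12.7 CPM (log2 -1.18 ± 0.15). Neither gene overlapped between the groups. Osteoclast genes gave 1 call in 14 and a median of -0.35, and the gene called was Tnfrsf11b, the osteoprotegerin that osteoblasts and stromal cells secrete to hold osteoclasts back, at 18.4 to 34 CPM and at 8.75 to 14 CPM (log2 -1.06 ± 0.16, adjusted p = 0.000344).

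Marrow within the bone ends was represented by blood cell genes. Erythroid genes had 0 of 14 called, but all 14 fold changes were positive, the median log2 was 0.51 and 10 had separate groups, and their summed level was 5960 to 7940 CPM at 0-day and 8532 to 12566 CPM at 1-week. Neutrophil and marrow granulocyte genes had 0 of 18 called and a median of -0.02. Cell cycle genes had 0 of 24 called with a median of 0.27, all positive. As a group, the contralateral libraries had higher erythroid and cell cycle levels and lower bone and cartilage levels. This did not hold library by library within the 0-day group, where replicate 1 was lowest in all 4 of these sums. The part of the erythroid and cell cycle levels in the bone and cartilage result was not tested. The granulocyte list, at a summed 16811 to 20575 CPM and 16358 to 21110 CPM, overlapped between the groups.

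Collagen genes were lower in every library. Of 12 fibrillar and associated collagen genes 10 fell, the median log2 was -0.96, and in all 12 every contralateral library lay below every 0-day library. Col1a2 was at 10123, 10843, 10981 and 12180 CPM in the 0-day libraries and at 5064, 4000, 4673, 6029 and 6598 CPM in the contralateral libraries, 2.12-fold lower (log2 -1.08 ± 0.16, adjusted p = 0.000212). Col1a1, its partner chain (named after its values were seen), was at 9010 to 13194 CPM and at 3937 to 7009 CPM. Both chains are also on the bone list and make up most of the 0-day sum of either list. Their 0-day means were 11037 CPM (Col1a1) and 11032 CPM (Col1a2), against 27754 CPM for the collagen list and 26464 CPM for the bone list. Col5a2, which sets the diameter of collagen fibrils, was 1.92-fold lower (adjusted p = 4.03e-05), Col14a1, which ties fibrils together, 2.04-fold lower (adjusted p = 0.000115), and Col6a1, of the beaded filaments around cells, 1.98-fold lower (adjusted p = 0.000249). Enzymes and chaperones that process collagen followed with 16 of 20 lower, a median log2 of -0.80 and 17 genes with separate groups. Pcolce, the enhancer of procollagen cleavage, was at 132, 121, 119 and 159 CPM and at 60.4, 62.4, 60.5, 71.5 and 80.9 CPM (adjusted p = 6.45e-05), with separate groups. Sec24d, a coat protein of the vesicles that carry procollagen out of the endoplasmic reticulum, had the smallest adjusted p of all genes, at 68.8, 71.3, 62 and 75.6 CPM and at 36.8, 34.4, 40.0, 37.4 and 41.3 CPM (log2 -0.89 ± 0.08, adjusted p = 2.2e-05). Its 2 groups were tight and far apart.

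Tendon, synovium and fibroblast genes followed. In the tendon and ligament list 9 of 12 genes fell (median log2 -0.87) and 9 had separate groups. Fmod, a small proteoglycan of tendon that guides fibril assembly, was at 464, 486, 468 and 655 CPM in the 0-day libraries and at 193, 208, 223, 228 and 259 CPM in the contralateral libraries, 2.36-fold lower (log2 -1.24 ± 0.13, adjusted p = 3.76e-05), and the groups stood well apart with 0-day replicate 4 the highest. Dcn, the related proteoglycan decorin, was at 1612 to 2216 CPM and at 858 to 1045 CPM (log2 -0.99 ± 0.11, adjusted p = 3.76e-05). Thbs4, a tendon thrombospondin, was 2.08-fold lower and Tnmd, the tenocyte marker tenomodulin, 2.53-fold lower. On the synovial list 9 of 16 genes fell (median -0.61) and 10 had separate groups. Prg4, the lubricin of the joint surface, was at 2160, 1658, 1485 and 2591 CPM and at 827, 977, 1007, 857 and 1274 CPM, 2.02-fold lower (log2 -1.01 ± 0.16, adjusted p = 0.000371). The serine proteases Htra4 (log2 -1.20 ± 0.13) and Htra1 (-0.87 ± 0.11) fell with it.

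Pdgfra, the growth factor receptor of fibroblasts, was at 125, 118, 113 and 133 CPM in the 0-day libraries and at 65.4, 68.5, 78.8, 66.4 and 70.5 CPM in the contralateral libraries (log2 -0.82 ± 0.08, adjusted p = 3.18e-05), with no overlap. On the list of activated fibroblast and matricellular genes 13 of 23 fell with a median of -0.61, among them Fn1, the fibronectin of the matrix (-0.95 ± 0.11), Sparc, a collagen-binding matrix protein (-0.89 ± 0.13), and Ctgf, a matricellular growth factor (-0.91 ± 0.10). Metallopeptidases and their inhibitors fell in 10 of 22 cases and rose in none. Mmp2, the gelatinase of fibroblasts, was at 306 to 423 CPM and at 160.2 to 209 CPM (log2 -0.96 ± 0.11, adjusted p = 4.03e-05), Mmp3, the stromelysin, at 6.94 to 14.9 CPM and at 2.66 to 5.6 CPM (-1.44 ± 0.21, adjusted p = 0.000231), and Timp2, an inhibitor of such enzymes, was 1.69-fold lower. Growth factor signaling genes of the Wnt, TGF-beta, BMP and IGF families had 11 of 31 lower and none higher (median -0.50). Gdf10, a BMP-family ligand, was at 30.4, 33.6, 28.6 and 36.9 CPM and at 12, 10.1, 14.2, 11.8 and 16.6 CPM (log2 -1.33 ± 0.14, adjusted p = 3.76e-05), Sfrp2, a secreted Wnt modulator, was 2.74-fold lower and Igfbp6, an IGF-binding protein, 2.51-fold lower. Sod3, the extracellular superoxide dismutase, was 2.23-fold lower. Others among the lower genes with the smallest adjusted p were Ccdc3, a secreted protein (log2 -1.12 ± 0.11), Gfpt2, an enzyme of hexosamine synthesis (-1.01 ± 0.10), Pcdh7, a protocadherin (-0.97 ± 0.10), Ntn1, the guidance cue netrin (-1.12 ± 0.12), and Kirrel, an adhesion protein (-0.68 ± 0.07). By size of change, Megf6, an EGF-repeat protein, fell 3.75-fold and Adamts16, a matrix protease, 3.67-fold.

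**Figure D3:**
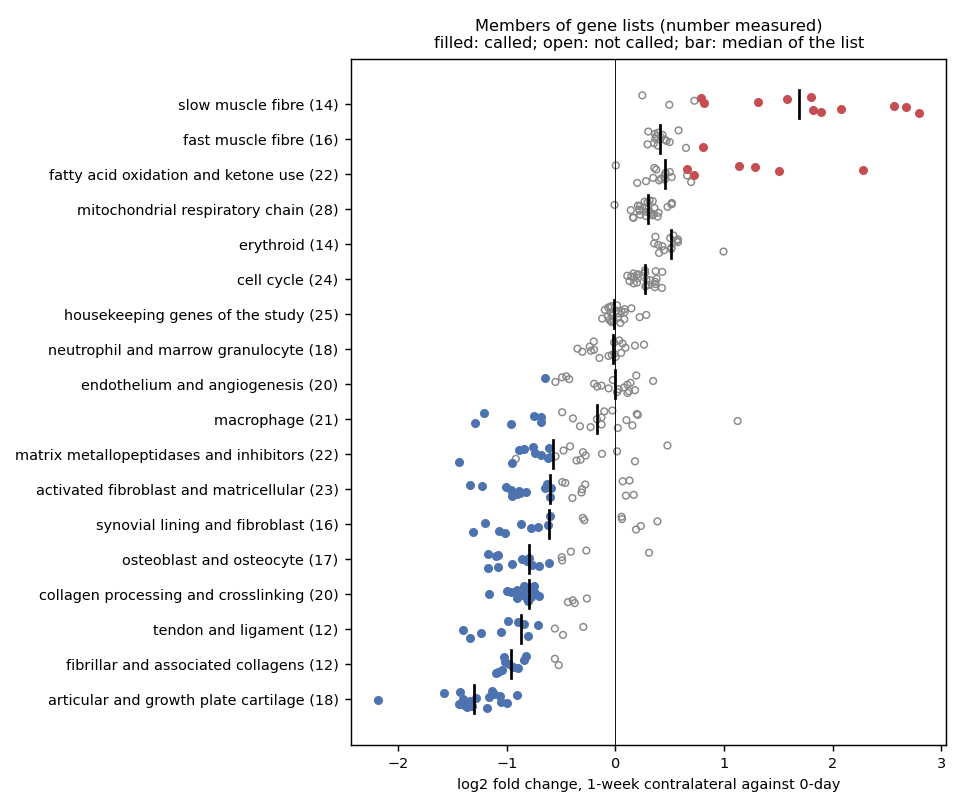
Each row is a gene list and each point 1 measured gene of it, at its log2 fold change between the 1-week contralateral and the 0-day joint (horizontal axis), with called genes colored and the median marked. The slow fiber list lies at the right with a median of 1.69, the cartilage, collagen, tendon and bone lists lie at the left, and the housekeeping genes sit at -0.02.

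Calls among immune genes differed from list to list, against 0.867% of all genes higher and 4.38% lower. Inflammatory cytokines and chemokines had 2 of 37 lower and none higher, namely Ccl21a, a homing chemokine of lymphatic vessels (log2 -0.96 ± 0.18, adjusted p = 0.0018), and Ccl8, a monocyte chemokine, at 1.29 to 3.71 CPM and at 0.537 to 1.39 CPM (log2 -1.63 ± 0.37, adjusted p = 0.00732). MHC and antigen presentation genes had 0 of 16 called. Of 21 macrophage genes 6 fell and none rose, and the median of the list was -0.17. Lyve1, a hyaluronan receptor of resident macrophages and lymphatic vessels, was at 41.5, 35.5, 28.3 and 40.1 CPM in the 0-day libraries and at 16.1, 23.5, 15.9, 16.9 and 22.5 CPM in the contralateral libraries (log2 -0.96 ± 0.16, adjusted p = 0.000471). Folr2, a folate receptor of such cells, was 2.45-fold lower, Timd4, a receptor for dying cells, 1.61-fold lower, and Retnla, a marker of alternative activation, 2.32-fold lower. The groups were separate in each of these 4 genes. The others called, named after their values were seen, were Gpnmb, a glycoprotein of macrophages and osteoclasts (-0.75 ± 0.18, adjusted p = 0.00958), and Trem2, a lipid-sensing receptor (-0.69 ± 0.18, adjusted p = 0.0163), whose call was lost without 0-day replicate 1 or 3 (adjusted p = 0.0576 and 0.0522) and with 1 RUVg factor (log2 -0.58).

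Some lymphocyte and interferon-stimulated genes rose. Fcer2a, the low-affinity IgE receptor of mature B cells, was at 5.07, 5.31, 4.02 and 4.52 CPM in the 0-day libraries and at 13.9, 12.5, 10.6, 10.3 and 11.6 CPM in the contralateral libraries, 2.44-fold higher with narrow and separate groups (log2 1.28 ± 0.14, adjusted p = 3.76e-05). Cr2, the complement receptor of mature B cells, was at 3.04 to 5.75 CPM and at 8.1 to 10.2 CPM (0.99 ± 0.18, adjusted p = 0.00139). They were the 2 called genes of 17 on the B cell list, whose median was 0.21. On the T and NK cell list 2 of 17 rose, Cd3e, a chain of the T cell receptor complex, at 1.18 to 2.08 CPM and 2.49 to 4.33 CPM (0.79 ± 0.22, adjusted p = 0.0243), and Cd8a, the coreceptor of cytotoxic T cells (0.67 ± 0.19, adjusted p = 0.0247). Both calls were lost without 0-day replicate 2 or 4 (adjusted p between 0.0581 and 0.0941), that of Cd3e also without contralateral replicate 5 (adjusted p = 0.0612), and that of Cd8a also without 0-day replicate 3 or contralateral replicate 4 (adjusted p = 0.0799 and 0.0543). Interferon-stimulated genes had 2 of 30 higher, the ubiquitin-like Isg15 (0.72 ± 0.18, adjusted p = 0.0121) and the antiviral Rsad2, at 197 to 243 CPM and 310.5 to 421 CPM (0.69 ± 0.12, adjusted p = 0.00134). Immunoglobulin variable genes gave large changes. They belong to a multigene family of similar sequence, whose shared reads were not examined, and are therefore uncertain. Igkv1-88 (log2 2.93) and Ighv5-16 (2.79) were called higher. Ighv4-1 (-2.47) and Igkv6-17 (-2.17) were called lower with 0-day replicate 1 far above the rest, at 36.6 and 12.0 CPM, and without it the log2 values were -0.72 (adjusted p = 0.396) and -0.64 (adjusted p = 0.332). Both calls were also lost when only the 9 libraries were fitted (adjusted p = 0.0532 and 0.0683).

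Some mast cell, fat and immediate early genes fell. The mast cell proteases Cma1 (log2 -0.97 ± 0.24, adjusted p = 0.0116), Mcpt4 (-0.97 ± 0.25, adjusted p = 0.0152) and Tpsb2 (-0.90 ± 0.25, adjusted p = 0.0279) were the 3 called genes of 11, and all 3 lost the call when 0-day replicate 1 was left out (adjusted p = 0.053, 0.0576 and 0.111). That of Tpsb2 was also lost without 0-day replicate 3 or contralateral replicate 1, 4 or 5 (adjusted p between 0.0536 and 0.0711). The list as a whole did not move with them, since 7 of its 11 fold changes were positive, the median log2 was 0.05 and the summed levels of 137 to 148 CPM and 131 to 169 CPM overlapped. In the fat list 6 of 25 fell and 2 rose. Plin1, the lipid droplet coat of white fat cells, was at 26.7, 13.3, 18 and 20.4 CPM in the 0-day libraries and at 7.62, 5.51, 10.0, 7.85 and 11.2 CPM in the contralateral libraries (-1.21 ± 0.20, adjusted p = 0.000462), and Fasn, the fatty acid synthase, and Lep, the fat cell hormone leptin, were 2.26-fold and 2.72-fold lower. For all 3 of these fat genes the groups were separate, and the 2 that rose were the oxidative genes Ppargc1a and Plin5 named above. Immediate early genes had 6 of 26 lower and 1 higher, with Fos at 17 to 31.9 CPM and 9.32 to 14 CPM, Fosb 3.23-fold lower, Egr3 2.26-fold lower and Klf4 at 95.3 to 120.4 CPM and 62.3 to 78 CPM (-0.68 ± 0.08, adjusted p = 3.76e-05). The 1 that rose was Nr4a3. Of 20 endothelial genes 1 was called lower, against 4.38% of all genes. Of 20 circadian clock genes 1 was called higher, against 0.867% of all genes.

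The contralateral joint at 1 day after injury gives the level at a time between the 2 ends, which for some genes lay outside both. The 1-week and 1-day contralateral joints differed in 749 genes (4.33%), with 221 higher (1.28%) and 528 lower (3.05%) at 1-week. The 1-week libraries enter both this comparison and that with the 0-day joint, so the values are given side by side and no overlap is counted. Against 1-day, 12 of 14 slow fiber genes were higher (median log2 1.62) and 10 of 22 genes of fatty acid oxidation (0.62), while 17 of 18 cartilage genes (-0.94), 13 of 17 bone genes (-0.72) and 8 of 12 tendon genes (-0.79) were lower. Fibrillar collagens gave 3 calls of 12 (-0.46) and collagen processing 6 of 20 (-0.54). Pdk4 had 77, 32.8, 31.2, 36.6 and 31.5 CPM at 1-day, so all 5 of these libraries lay below every 0-day library, and its 1-week level was far above them (log2 4.03 between 1-week and 1-day, adjusted p = 7.84e-07). Ucp3 was likewise at 13 to 33.8 CPM at 1-day (log2 2.53 between 1-week and 1-day, adjusted p = 4.21e-06). Myh7 was at 12.8 to 87.7 CPM at 1-day, a range that contains the 0-day libraries, and all 1-week libraries lay above it.

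**Figure D4:**
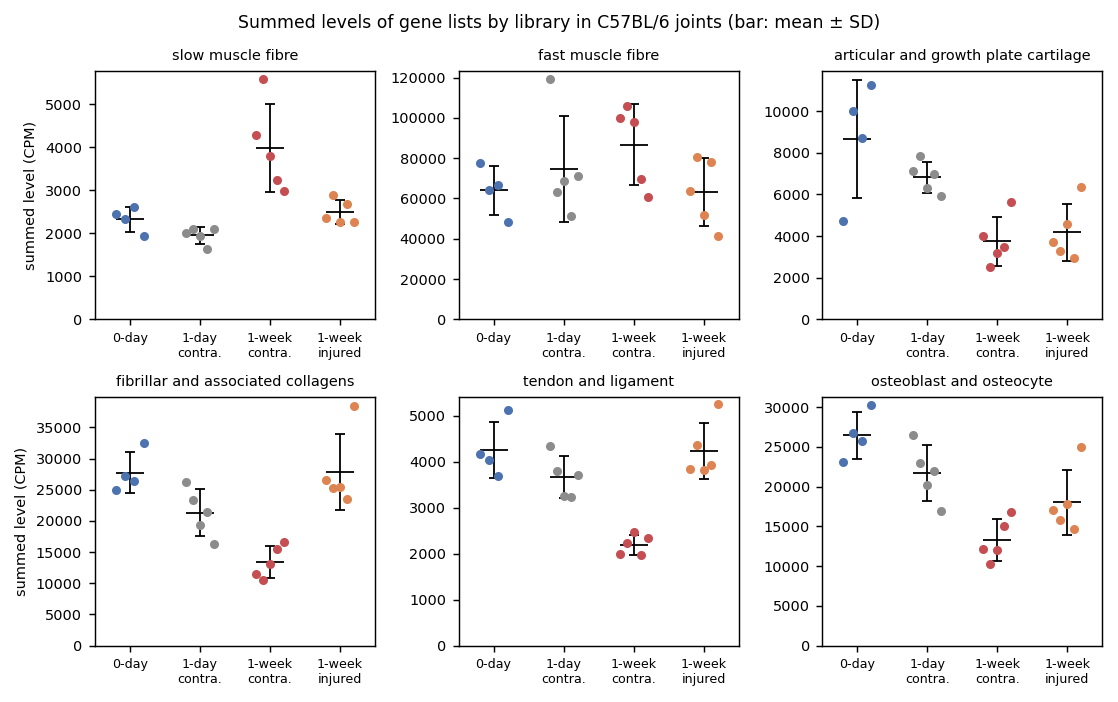
Summed level of 6 gene lists in CPM (vertical axis, from 0) by library in the 0-day, 1-day contralateral, 1-week contralateral and 1-week injured C57BL/6 joints, with the mean and SD as a bar. Slow fiber genes are highest in the 1-week contralateral joint at 2993 to 5585 CPM, and fibrillar collagens have their lowest mean there, at 10576 to 16581 CPM, with 1 library of the 1-day joint within that range at 16365 CPM. The collagen and bone lists share Col1a1 and Col1a2.

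The injured joint of the same time point was set beside both references. The injured and contralateral joints at 1-week differed in 997 genes (5.76%), of which 813 (4.7%) were higher and 184 (1.06%) lower in the injured joint. The number lower was 122 without contralateral replicate 2. This comparison and that with the 0-day joint share the contralateral libraries. Collagens summed to 24970 to 32457 CPM at 0-day, 10576 to 16581 CPM in the contralateral joint and 23462 to 38491 CPM in the injured joint, so the injured libraries covered the 0-day range and the contralateral libraries lay below both. The tendon list was at 3684 to 5118 CPM, 1973 to 2466 CPM and 3818 to 5246 CPM, so the contralateral libraries again lay below both and the other ranges overlapped. Slow fiber genes summed to 1930 to 2603 CPM at 0-day, 2993 to 5585 CPM in the contralateral joint and 2262 to 2903 CPM in the injured joint. Measured against the contralateral joint, the injured joint had 11 of 12 collagens higher (median log2 1.66), 15 of 20 collagen processing genes higher (0.79), 8 of 12 tendon genes higher (1.07), and 11 of 14 slow fiber genes lower. Cartilage genes gave 3 higher and 1 lower of 18 (-0.08), and bone genes 1 higher and 2 lower of 17 (-0.13).

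Single genes show the levels of the 3 kinds of joint. Fmod was at 388, 423, 384, 383 and 605 CPM in the injured joint, against 464 to 655 CPM at 0-day and 193 to 259 CPM in the contralateral joint, and the injured joint was called higher than its contralateral reference (log2 1.00, adjusted p = 5.22e-05). Sec24d, at 55.7 to 84.8 CPM in the injured joint and 62 to 75.6 CPM at 0-day, was also called higher against the contralateral joint (log2 0.85, adjusted p = 2.89e-05). Myh7 was at 27.9 to 70.9 CPM in the injured joint, within or above its 0-day range of 20.3 to 40.4 CPM, and was called lower against the contralateral joint (log2 -1.79, adjusted p = 0.000706). Gdf10 was at 13 to 14.9 CPM in the injured joint and 10.1 to 16.6 CPM in the contralateral joint, both below the 0-day libraries, and gave no call between the joints (log2 0.15, adjusted p = 0.511). Lyve1, with 14.2 to 20.9 CPM in the injured joint, and Ccdc3, with 35.1 to 42.7 CPM, were lower than at 0-day in every library of both joints.

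The same step from 0-day to the 1-week contralateral joint was taken in MRL/MpJ and STR/ort mice, with 4 libraries per group. In MRL/MpJ, edgeR's quasi-likelihood test called 0 genes and found 827 at an unadjusted p below 0.05, with median log2 values of -0.09 for slow fiber genes, -0.30 for cartilage, -0.06 for collagens and -0.05 for tendon. A test of the difference between the strains' changes called 200 genes (1.16%), 34 with a more positive change in C57BL/6 (0.196%) and 166 with a more negative one (0.959%). Among the lists, the change in C57BL/6 was more positive for 5 of 14 slow fiber genes and more negative for 4 of 12 collagens, 7 of 20 collagen processing genes, 5 of 12 tendon genes and 2 of 18 cartilage genes. The remaining members were not called, which does not show that the strains changed alike. The total of 200 was 311 with DESeq2. It also rested on single libraries, being 46 without 0-day C57BL/6 replicate 4, 52 without 1-week MRL/MpJ replicate 4, 69 and 77 without 0-day MRL/MpJ replicates 4 and 3, 95 and 106 without 1-week C57BL/6 replicates 1 and 2, 111 and 114 without 0-day MRL/MpJ replicates 1 and 2, and 118 without 0-day C57BL/6 replicate 2. The number with a more positive change was 7 without 0-day C57BL/6 replicate 4, 8 without 1-week MRL/MpJ replicate 4, 11, 15 and 14 without 0-day MRL/MpJ replicates 1, 3 and 4, 17 and 19 without 1-week C57BL/6 replicates 1 and 2, 19 without 0-day C57BL/6 replicate 2, 68 without 1-week C57BL/6 replicate 5, 66 with DESeq2 and 63 with 1 RUVg factor. The number with a more negative change was 39 to 230 with 1 library left out, lowest without 0-day C57BL/6 replicate 4.

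Named genes with a called strain difference fell in both directions. Xirp1 had a log2 change of 1.40 in C57BL/6 and -0.16 in MRL/MpJ, where levels of 127 to 171 CPM and 118 to 153 CPM overlapped (difference 1.56 ± 0.26, adjusted p = 0.00478). Myh7 differed most in size (2.80 and -0.54, difference 3.34 ± 0.73, adjusted p = 0.0246), and its MRL/MpJ libraries were scattered at 25.8 to 106 CPM and 9.05 to 62.9 CPM. Fcer2a (1.28 and -0.04, difference 1.32 ± 0.28, adjusted p = 0.0203) and Pdk4 (2.28 and 0.59, difference 1.69 ± 0.41, adjusted p = 0.0354) were called as well. Without 0-day MRL/MpJ replicate 1 or 0-day C57BL/6 replicate 4 the calls of Myh7 (adjusted p = 0.0793 and 0.0639), Fcer2a (0.0547 and 0.0513) and Pdk4 (0.0547 and 0.0648) were lost, and Myh7 also lost it without 1-week MRL/MpJ replicate 4 (adjusted p = 0.0721). Pdk4 lost its call in 8 further fits with 1 library left out (adjusted p up to 0.0881), without 0-day MRL/MpJ replicates 3 or 4, 0-day C57BL/6 replicates 1 or 2, 1-week MRL/MpJ replicates 1 or 4 or 1-week C57BL/6 replicates 1 or 2. The call of Xirp1 held in every such fit.

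Among the lower genes, Gdf10 changed by -1.33 in C57BL/6 and by 0.03 in MRL/MpJ (difference -1.36 ± 0.19, adjusted p = 0.00128), and its MRL/MpJ libraries, at 13.6 to 16.5 CPM at 0-day and 13.3 to 17.6 CPM at 1-week, lay near the contralateral C57BL/6 level at both times. Fmod changed by -1.24 and -0.15 (difference -1.10 ± 0.19, adjusted p = 0.00713) and Dcn by -0.99 and 0.00 (difference -0.98 ± 0.18, adjusted p = 0.00885). The MRL/MpJ libraries of Dcn were at 815 to 965 CPM at 0-day and 792 to 960 CPM at 1-week, and the contralateral C57BL/6 libraries at 858 to 1045 CPM overlapped these ranges. Summed collagens ran likewise at 12687 to 16488 CPM and 11416 to 18435 CPM in MRL/MpJ. Timd4 differed in the same direction (-0.69 and 0.07, difference -0.76 ± 0.16, adjusted p = 0.0195), at a higher MRL/MpJ level of 24.7 to 30.7 CPM and 28.3 to 30.2 CPM.

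**Figure D5:**
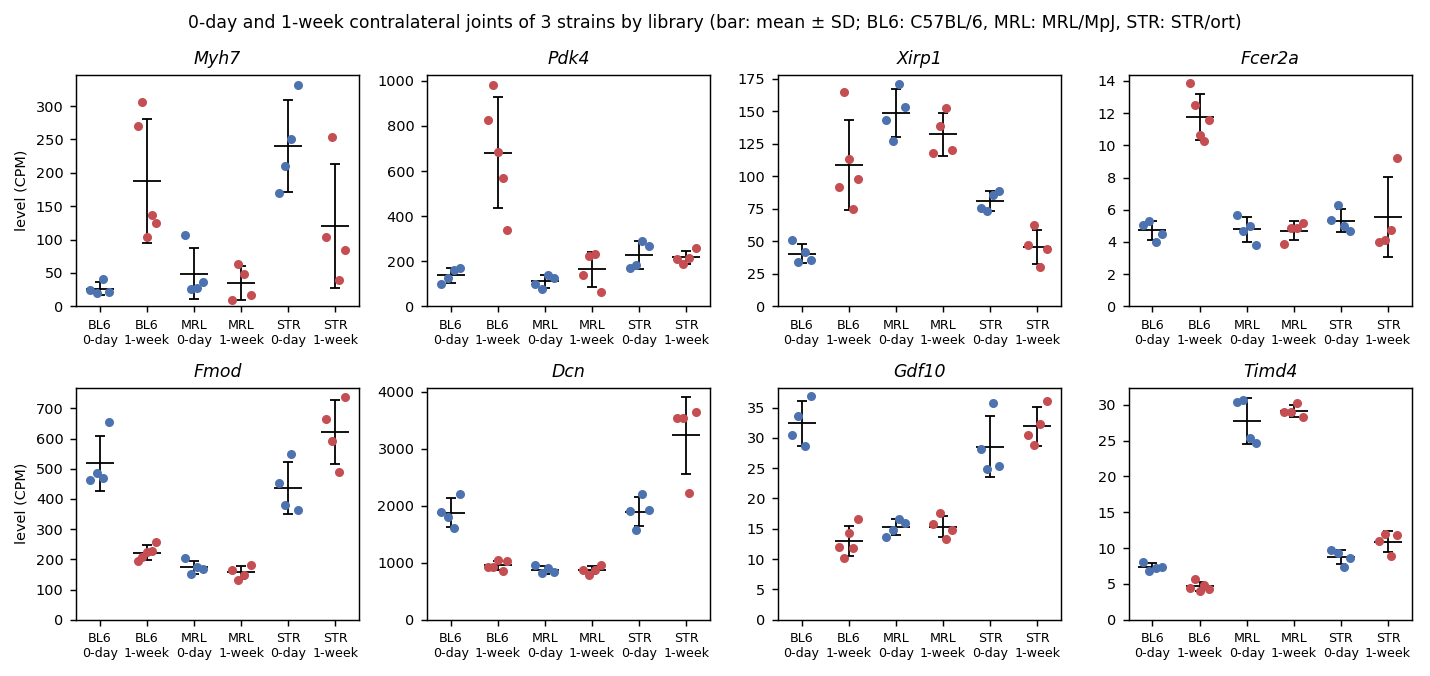
Levels of 8 genes in CPM (vertical axis, from 0) in the 0-day and 1-week contralateral joints of C57BL/6, MRL/MpJ and STR/ort mice, 1 point per library with the mean and SD as a bar. In C57BL/6 every 1-week library of Fmod, Dcn and Gdf10 lies below every 0-day library, while in MRL/MpJ the ranges of the 2 times overlap.

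In STR/ort the muscle and matrix lists had medians of the opposite sign. Its own step gave 944 genes higher (5.45%) and 1353 lower (7.82%), with median log2 values of -1.27 for slow fiber, -1.19 for fast muscle, 0.45 for cartilage, 0.80 for collagens and -1.62 for immediate early genes. The change differed between C57BL/6 and STR/ort in 1694 genes with a more positive change in C57BL/6 (9.79%) and 1946 with a more negative one (11.2%), including all 18 cartilage genes, more negative, and 13 of 14 slow and all 16 fast muscle genes, more positive. With 1 RUVg factor these numbers fell to 716 and 1228. Myh7 differed by 3.81 ± 0.71 on the log2 scale (adjusted p = 0.000116), a call that was lost with 1 RUVg factor (2.40, adjusted p = 0.0713), Fmod by -1.75 (adjusted p = 1.48e-07) and Dcn by -1.76 (adjusted p = 7.1e-08). Muscle genes of both fiber types and immediate early genes were lower at 1-week than at 0-day in STR/ort, and their part in the differences between these strains was not tested.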

How the data were processed

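The series measured poly(A) RNA of whole mouse knee joints in 100 libraries of 21 groups, and 9 libraries, in 2 groups taken from the sample titles, entered the main comparison. The authors deposited raw counts per RefSeq gene in a single table, not normalized. According to the study and the submitters' processing notes, reads were aligned to mm10 with TopHat2 2.0.11 and counted with featureCounts. Of 17313 rows 3 exact repeats were dropped, which left 17310 genes, 24 of which have a date for a name and are not named. Every gene passed the study's filter, 2 counts or more in 5 libraries or more.

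Counts were scaled by TMM and fitted with edgeR 4.0.16 (R 4.3.3) by its quasi-likelihood test, on the 14 uninjured C57BL/6 libraries of batch 1 for the comparisons with 0-day and 1-day, on 25 libraries of 3 strains for the strain differences and on the 10 libraries of 1-week for the injured joint. P-values were adjusted by Benjamini-Hochberg over all 17310 genes. A gene was called at an adjusted p below 0.05 and a fold above 1.5. Levels are CPM with TMM factors, and the depth per library (8074119 to 20986027 counts) limits the precision of genes at a few CPM. Standard errors are the log2 fold change divided by the square root of F. On counts simulated from these libraries, the test called 85% of genes changed 2-fold and 99% of genes changed 4-fold, 100 of each, with 10 false calls. None of the 16 pairs of replicates held identical counts.

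The gene lists and the comparison were chosen with earlier results of these data known, so counts over lists are descriptions. Genes were named by rule: the 10 smallest adjusted p-values and the 5 largest changes (mean of at least 1 CPM) in each direction, and up to 4 called members per list and direction, from which the text takes a selection. Other genes are said to be named after their values were seen. Alternatives were other size factors (RLE, library size alone, the sum of housekeeping genes), other count filters, RUVg factors from 25 housekeeping genes, edgeR's likelihood ratio test, DESeq2 1.42.0, fits on fewer or more libraries of batch 1, a replicate block and leaving out each library in turn.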

Additional observations from a re-analysis of the deposited data

Results flagged for a closer look

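Of 192 sets of 4 or 5 values, the levels of 96 named genes in each group, 12 had 1 library far from the rest by Dixon's criterion at its 5% level, at which chance also marks some sets. Genes of a group share their libraries, so these sets are not independent, and how many chance would give was not computed. Contralateral replicate 2 was the high library for muscle genes, with Ankrd2 at 124 CPM, Csrp3 at 142 CPM, Hspb7 at 391 CPM and Cryab at 554 CPM. Contralateral replicate 5 was high for Dkk1 at 12.7 CPM and Cd3e at 4.33 CPM, replicate 1 for Retnla at 9.47 CPM and replicate 4 for Igkv1-88 at 19.6 CPM. Among the 0-day libraries, replicate 1 was high for Ighv4-1 at 36.6 CPM and Igkv6-17 at 12.0 CPM, replicate 3 for Tnnt1 at 34.8 CPM and replicate 4 for Fmod at 655 CPM.

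Strain differences in the change from 0-day to the 1-week contralateral joint are printed for 8 named genes, picked from those with a called difference. They are not all of the named genes that differed, since all 18 cartilage genes, for example, differed from STR/ort. Against MRL/MpJ, the log2 change in C57BL/6 was more positive by 3.34 in Myh7, 1.69 in Pdk4, 1.56 in Xirp1 and 1.32 in Fcer2a, and differed by -1.36 in Gdf10, -1.10 in Fmod, -0.98 in Dcn and -0.76 in Timd4. Against STR/ort it differed by 3.81 in Myh7, -1.75 in Fmod and -1.76 in Dcn.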

How the results depend on the processing

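Under the other settings the comparison with 0-day gave 894 to 1042 called genes and 625 to 1034 with 1 library left out, and the number higher was 81 to 223 with 1 library left out and 544 to 811 were lower. For the comparison with 1-day, 734 to 831 and 572 to 872 genes were called. The strain difference from MRL/MpJ rose to 311 genes with DESeq2 (66 higher) and had 63 higher with 1 RUVg factor, and with 1 library left out it ranged from 46 to 298 (7 to 68 higher, 39 to 230 lower). That from STR/ort fell to 1944 genes with 1 RUVg factor (716 higher, 1228 lower), where the call of Myh7 was lost (2.40, adjusted p = 0.0713), and was 3345 to 3848 with 1 library left out. Between the joints at 1-week 796 to 1098 genes were called with 1 library left out, 122 to 271 of them lower. The cause of these shifts was not tested.

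Libraries of the same number at 0-day and 1-week did not deviate together, with correlations from -0.08 to 0.02. For the 2 joints at 1-week they ranged from -0.02 to 0.27, the labels do not say whether a number marks 1 mouse, and the block gave 1036 called genes in place of 997. With the replicate block 235 genes were higher at 1-week than at 0-day, and the strain difference from MRL/MpJ held 391 genes (161 higher).

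Counts over lists were recomputed after the data were seen. With 1 library left out, 10 to 12 of 14 slow fiber, 17 to 18 of 18 cartilage, 11 to 12 of 17 bone, 8 to 9 of 12 tendon, 10 to 11 of 12 collagen and 9 to 13 of 23 fibroblast genes were called. Of 96 named genes 13 lost a call in at least 1 such fit and 6 under another setting (Trim63, Cryab, Hspb1, Trem2, Ighv4-1 and Igkv6-17), and 0 of 480 values under other settings and 0 of 864 with a library left out changed direction. Depth limits genes at a few CPM, such as Sln, Lrrc52 and Matn1.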

Other observations

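The contralateral C57BL/6 joint was also sampled at 2 weeks, with 5 libraries in experimental batch 2, so time and batch cannot be told apart and the values are given without a test. There the summed level of the slow fiber list was 2445 to 3389 CPM, and that of the fast fiber list 84132 to 110059 CPM. The cartilage list stood at 4607 to 5357 CPM, the collagen list at 20983 to 24097 CPM, the tendon list at 1518 to 1728 CPM and the bone list at 20537 to 23467 CPM. Of these, the tendon libraries of 2-weeks lay below every 1-week contralateral library, and the collagen and bone libraries lay above every one of them. The collagen and bone lists share Col1a1 and Col1a2, so these sums are not separate observations.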
